A study of Mus musculus with 4 samples.

Results

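Sphingosine 1-phosphate (S1P) signalling in endothelium was described here by 9 genes of the deposited gene table of 17915 coding genes. They are the receptors S1pr1, S1pr2, S1pr3 and S1pr4, the kinases Sphk1 and Sphk2, the exporter Spns2, the lyase Sgpl1 and the lipid phosphatase Plpp3, each matched to its row by gene symbol, and all 9 were found. The 4 RNA-seq libraries were made from endothelial cells sorted from mouse lung, 2 from tdTomato+ and 2 from ZsGreen+ cells. All came from mice of the genotype Cdh5-CreER;aSMA-LSL-Dre;NR1 that were given tamoxifen 5 times and had undergone transverse aortic constriction (TAC), a narrowing of the aorta, 6 weeks before. Cdh5, the VE-cadherin gene, drives the tamoxifen-inducible Cre recombinase, and ZsGreen marks endothelial cells. In cells in which the alpha smooth muscle actin locus was active after Cre had acted, if only briefly, tdTomato replaces ZsGreen. LSL in the genotype is a stop cassette that Cre removes, so activity before tamoxifen is not recorded. The comparison asks how cells with that recorded activation differ from those without it. Mice without TAC were not analysed here, so both groups share the surgery and the tamoxifen, and the age and number of mice behind each library are not given in the labels.

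S1P is a lipid made inside cells from sphingosine by the sphingosine kinases Sphk1 and Sphk2. Endothelial cells release it through the transporter Spns2, and outside the cell it acts on G protein-coupled receptors. S1pr1 couples to Gi and Rac and tightens endothelial junctions, whereas S1pr2 and S1pr3 also couple to other G proteins. Sgpl1, an enzyme of the endoplasmic reticulum, splits S1P irreversibly inside the cell, and Plpp3 removes the phosphate of S1P and of lysophosphatidic acid at the cell surface.

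The libraries held 17050673 to 18574737 estimated counts, and 13177 genes passed the filter on low counts, all 9 S1P genes among them. Genes are compared with each other in TPM, which is scaled for transcript length and library size, and groups are compared in CPM, counts scaled to normalized library size; group values are mean ± SD with n = 2. A log2 fold change above 0 means a higher level in tdTomato+ cells; it comes with its standard error (SE) from edgeR's two-sided quasi-likelihood test, and adjusted p-values are Benjamini-Hochberg over all 13177 genes. The titles call the 2 libraries of each group biological replicates, without saying whether each came from its own mouse or a pool, and library-to-library spread is all that the p-values measure. Acta2, the recorded gene, stood at 304 and 528 CPM in tdTomato+ and at 87.6 and 82.9 CPM in ZsGreen+ libraries, in the order of the labels. The endothelial markers Pecam1 and Cdh5 were read at 1112 CPM or more in every library, and 10 pan-endothelial markers summed to 8846 and 8502 against 11353 and 9585 CPM, 0 of 10 called. Smooth muscle and pericyte markers, Acta2 included, summed to 1668 and 2361 against 1419 and 1012 CPM. Of 10 tested 1 was called, Acta2 itself, against 0.304% of all genes. Tagln, the largest part of the sum, stood at 1336 and 1787 against 1300 and 894 CPM (edgeR adjusted p = 0.69). In CPM 3 of the 10 did not overlap and were higher, Acta2 and Tagln among them. Another 2 were lower, beside 19.9% and 18.2% of all genes. Epithelial markers summed to 435 and 522 against 274 and 528 CPM, 0 of 10 called. Scgb1a1 alone gave 384 CPM of the sum in ZsGreen+ replicate 2. The list's median log2 fold change was 0.98. In CPM 6 of 10 did not overlap between groups and were higher in tdTomato+ cells, and 1 was lower. The shares of all genes tested were 19.9% and 18.2%.

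The S1P genes did not pass the test between tdTomato+ and ZsGreen+ cells: edgeR called 0 of 9, with adjusted p from 0.375 to 0.952, against 0.304% of all genes tested (0.167% higher and 0.137% lower in tdTomato+ cells). S1pr4 and Spns2 had an unadjusted p under 0.05, that is 2 of 9 beside 8.77% of all genes. DESeq2 was run without the filter on low counts and tested 16747 genes, the base of its shares here and below. It likewise called 0 of 9 (1.97% of all genes), with 3 at an unadjusted p under 0.05 (7.05%), the third being Plpp3. The same counts came from limma-voom, 0 of 9 called (0.25% of all genes) and those 3 at an unadjusted p under 0.05 (9.34%). A fit with the replicate number as a block called 1 of 9, S1pr4, where it called 7.09% of all genes; it had the same 3 at an unadjusted p under 0.05 (14.7%). Log2 fold changes were above 0 for Plpp3, Sphk1, S1pr3, Sgpl1 and S1pr2 and below 0 for S1pr4, Spns2, S1pr1 and Sphk2. Their median was 0.29, beside -0.007 over all genes tested, and it was -0.21 without tdTomato+ replicate 2. The CPM of the groups did not overlap for 6 of the 9, 3 higher and 3 lower in tdTomato+ cells, and the same held for 38.1% of all genes, 19.9% higher and 18.2% lower. In TPM this was so for 5 of the 9, without S1pr1, and for 37.0% of all genes. With 2 against 2 libraries an exact two-sided permutation test of one gene cannot go below 0.333, so none is given. On counts simulated with the same variation for every gene, edgeR called 18% of 50 genes changed 2-fold. A count of 0 of 9 therefore does not show equal levels.

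**Figure D1:**
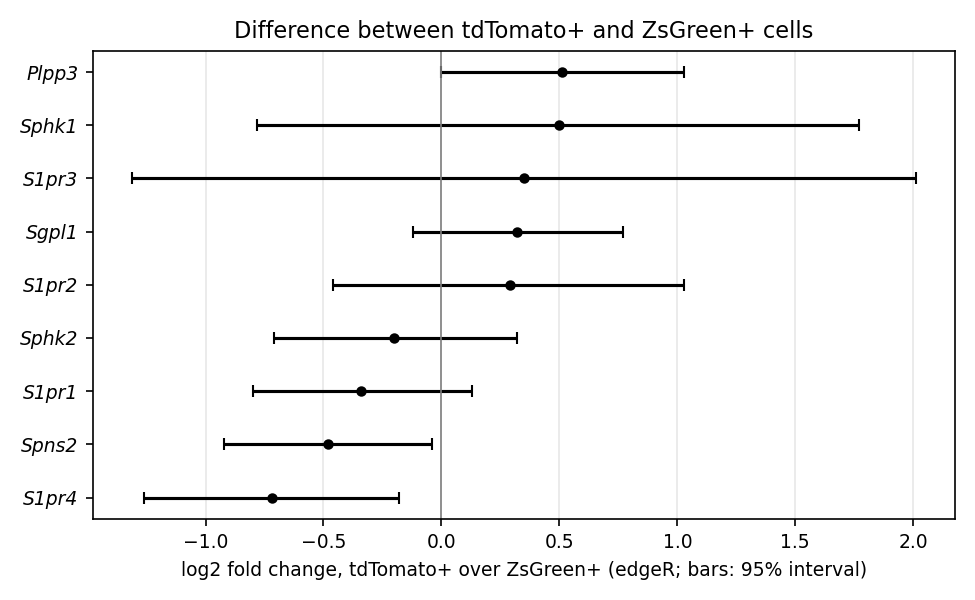
Log2 fold change of each S1P gene, tdTomato+ over ZsGreen+ (points; bars are 95% intervals of the edgeR fit, n = 2 libraries per group). The points run from -0.72 for S1pr4 to 0.51 for Plpp3 and 0.50 for Sphk1, and the intervals of S1pr4 and Spns2 lie below 0 before adjustment.

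The receptor side was dominated by S1pr1 in every library. Its TPM was 586.82 and 480.29 in tdTomato+ cells and 583.31 and 626.30 in ZsGreen+ cells, above 98.3% of the table's rows by its mean of 569 TPM. S1pr1 made up 90.7% and 90.4% of the TPM summed over the 5 receptor genes, S1pr5 included, in tdTomato+ cells and 87.5% and 90.0% in ZsGreen+ cells. S1pr4 held most of the remainder, at 8.39% and 8.3% against 11.9% and 9.23%. S1pr2 held at most 0.897% and S1pr3 at most 0.423%. S1pr5, which is not one of the 9 genes, was read with 1 to 5 counts per library and did not pass the filter.

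S1pr1 (NCBI Gene 13609; chromosome 3, 115710433 to 115715055, GRCm38) is the receptor that keeps endothelial barriers closed and restrains sprouting. It was read at 1025 and 882 CPM in tdTomato+ libraries and at 1261 and 1147 CPM in ZsGreen+ libraries. Both tdTomato+ libraries lay below both ZsGreen+ libraries on this scale, while on the TPM scale tdTomato+ replicate 1 lay above ZsGreen+ replicate 1. Group levels were 953 ± 101 against 1204 ± 80.6 CPM, with a log2 fold change of -0.34 (SE 0.20, 95% interval -0.80 to 0.13, edgeR adjusted p = 0.757). The interval leaves out a change of 2-fold or more in either direction. Klf2, a shear-responsive factor known to drive S1pr1 transcription, was named after its values were known: 888 and 1099 CPM in tdTomato+, 1234 and 830 CPM in ZsGreen+ libraries, with the groups overlapping.

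Among 10161 other genes at a mean of 5 CPM or more, those nearest to S1pr1 in pattern over the 4 libraries were Pdcd11, Mrpl35, Klhdc2 and Tmem80. Their root-mean-square difference from S1pr1, in log2 CPM centred on each gene's mean, was 0.00933 to 0.0201. With 4 libraries many genes share so shallow a pattern. Nearest to S1pr4 were Rab3a, Ly6g5b, Bmp6 and Rps6ka1, at 0.0347 to 0.0634. Bmp6, the most abundant of these 4, stood at 197 and 171 CPM in tdTomato+ and at 324 and 243 CPM in ZsGreen+ libraries.

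S1pr4 (NCBI Gene 13611; chromosome 10, 81497745 to 81500137) is best known as a receptor of lymphocytes and other blood cells. It was the second most abundant receptor here and had the smallest p of the 9 genes. Its CPM was 73.5 and 62.9 in tdTomato+ libraries, against 134 and 91.4 in ZsGreen+ libraries. Both tdTomato+ libraries were lower than both ZsGreen+ libraries, on the TPM scale as well. The means were 68.2 ± 7.5 and 113 ± 29.9 CPM, and the log2 fold change was -0.72 (SE 0.23, 95% interval -1.26 to -0.18). The unadjusted p was 0.01598 and the edgeR adjusted p 0.375, so the difference did not pass. In bulk libraries, fewer cells that express a gene and less RNA per cell cannot be told apart.

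Markers of blood cells were set beside S1pr4 because of where the receptor is best known. The 9 T and NK cell markers in the table summed to 10.7 and 5.72 CPM in tdTomato+ and 10.6 and 4.44 CPM in ZsGreen+ libraries. The 5 B cell markers summed to 13.7 and 5.2 against 12.6 and 1.48 CPM. Cd3e, the T cell receptor component, was at 2.7 CPM or less in every library; no marker of either list was at 0 in all libraries. The 11 macrophage and monocyte markers summed to 5536 and 2645 CPM against 3078 and 722 CPM, with a median log2 fold change of 1.11, 0 of 11 called and overlapping groups. Neutrophil markers were higher in both tdTomato+ libraries, at a summed 42.6 and 45.6 against 31.2 and 15.9 CPM, with 0 of 5 tested called. In CPM 4 of the 5 did not overlap and were higher in tdTomato+ cells, as were 19.9% of all genes tested. Platelet and erythroid markers summed to 39.9 and 48.5 against 62.2 and 51.7 CPM over 9 genes, 0 of the 7 tested called. The 10 capillary endothelial markers summed to 2349 and 2210 against 2763 and 2969 CPM, 1 of 10 called, lower, and none at 0 in all libraries. Their median log2 fold change was -1.24. In CPM 7 of 10 did not overlap and were lower in tdTomato+ cells, and 1 was higher, beside 18.2% and 19.9% of all genes. Ptprb, a large part of the sum, lay the other way, at 1305 and 1208 against 923 and 1013 CPM. The part of these markers in the S1pr4 difference was not tested.

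The sequence before the annotated start of S1pr4 and of Plpp3 is shown because these genes had the lowest p among those below and above 0. Each window holds the 250 bases upstream of the RefSeq transcript start (GRCm38.p6, 5′ to 3′ on the gene's strand), with matches to CACCC, the core bound by KLF factors, in capitals on either strand, where GGGTG is the same core read from the other strand.
S1pr4, chr10:81500138-81500387, minus strand: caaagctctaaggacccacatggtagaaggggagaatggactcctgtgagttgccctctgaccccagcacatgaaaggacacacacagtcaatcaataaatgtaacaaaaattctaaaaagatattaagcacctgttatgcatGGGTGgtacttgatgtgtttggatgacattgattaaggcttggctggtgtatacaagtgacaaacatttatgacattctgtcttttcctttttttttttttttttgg
Plpp3, chr4:105157097-105157346, plus strand: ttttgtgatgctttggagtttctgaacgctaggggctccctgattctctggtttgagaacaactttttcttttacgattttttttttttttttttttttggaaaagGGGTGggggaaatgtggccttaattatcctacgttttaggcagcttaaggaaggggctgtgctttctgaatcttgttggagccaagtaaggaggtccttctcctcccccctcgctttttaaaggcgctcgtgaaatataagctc
Each window holds 1 CACCC match, and 52.0% of the 32851 RefSeq windows of the same length hold at least 1. G and C made up 38.8% of the S1pr4 window and 42.4% of the Plpp3 window, beside a median of 52.4% over all windows. Neither window holds the TATA box TATAAA on either strand, which 12.4% of windows hold. Nor does either hold the GATA factor core AGATAA, held by 9.99%, or a CArG box, the element bound by serum response factor, held by 1.47%; these were searched on both strands too. A match is a run of letters and does not show binding. RefSeq windows were found for 8 of the 9 genes.

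The receptors S1pr2 and S1pr3 were read at low levels. S1pr2 (NCBI Gene 14739; chromosome 9, 20965952 to 20976793) stood at 8.25 and 8.24 CPM in tdTomato+ and 6.45 and 7.07 CPM in ZsGreen+ libraries. Those groups did not overlap, but the log2 fold change of 0.29 (SE 0.31, 95% interval -0.46 to 1.03) was within its error. S1pr3 (NCBI Gene 13610; chromosome 13, 51408618 to 51422797) rested on 28 and 119 counts in tdTomato+ and on 36 and 70 counts in ZsGreen+ libraries. Its CPM was 1.54 and 6.25 against 2.28 and 3.83, so both ZsGreen+ values lay between the tdTomato+ ones. The log2 fold change was 0.35 (SE 0.70, 95% interval -1.31 to 2.01), and without tdTomato+ replicate 2 it was -0.97. No direction can be read for S1pr3 from these libraries.

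**Figure D2:**
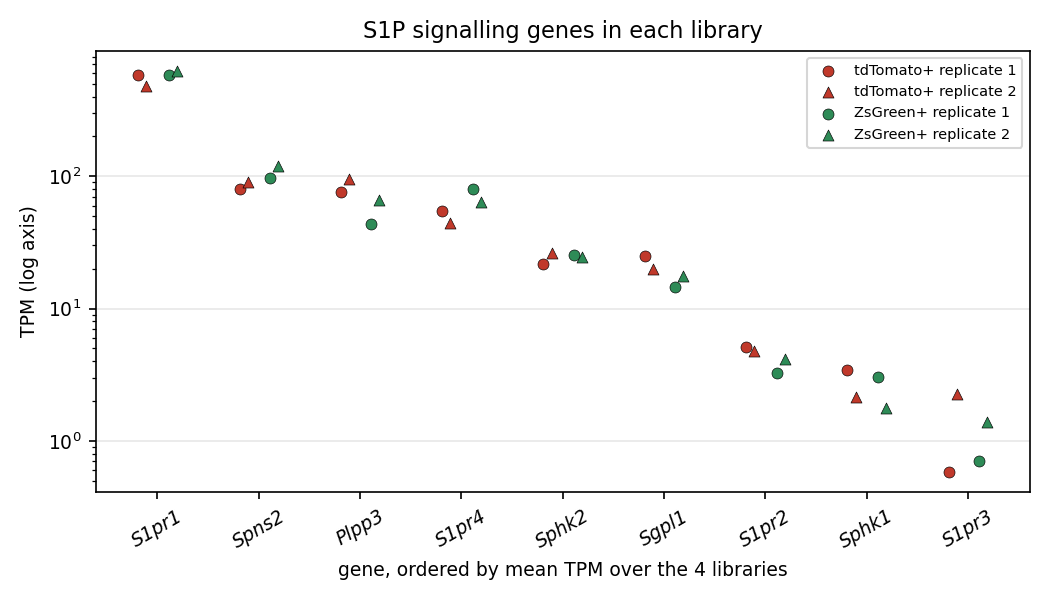
TPM (log axis) of the 9 S1P genes in each of the 4 libraries, genes ordered by mean TPM. S1pr1 lies alone at 480.29 to 626.30 TPM, while Spns2, Plpp3 and S1pr4 share the range from 43.24 to 119.96 TPM.

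By mean TPM the 9 genes stood in the order S1pr1 (569), Spns2 (96.8), Plpp3 (69.9), S1pr4 (60.6), Sphk2 (24.4), Sgpl1 (19.2), S1pr2 (4.31), Sphk1 (2.6) and S1pr3 (1.23). Neighbours in this order were separated in range only between S1pr1 and Spns2, between S1pr4 and Sphk2 and between Sgpl1 and S1pr2. All other neighbours overlapped over the 4 libraries. The genes thus fell into 4 bands: the main receptor, then exporter, surface phosphatase and S1pr4, then Sphk2 and lyase, then S1pr2, Sphk1 and S1pr3.

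Spns2 (NCBI Gene 216892; chromosome 11, 72451638 to 72489976), which carries S1P out of blood and lymphatic endothelial cells, was the second most abundant of the 9. Its CPM was 138 and 168 in tdTomato+ cells and 207 and 221 in ZsGreen+ cells. The groups did not overlap, on the TPM scale as well. They stood at 153 ± 21.4 and 214 ± 9.98 CPM, with a log2 fold change of -0.48 (SE 0.19, 95% interval -0.92 to -0.04, unadjusted p = 0.03578, edgeR adjusted p = 0.513). Spns2 therefore did not pass, and its interval leaves out a fall of 2-fold. Of the exonic bases of Spns2, 3.21% overlap Mybbp1a on the opposite strand.

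Lymphatic markers are given beside Spns2 because edgeR called 4 of the 8 tested lower in tdTomato+ cells, against 0.137% of all genes. The 4 were Reln, Mmrn1, Thy1 and Fxyd6. Of the 8, 7 had libraries that did not overlap, all lower, as had 18.2% of all genes, and the median log2 fold change was -2.21; this fall was known when the genes were chosen. Prox1, the lymphatic lineage regulator, was not called (edgeR adjusted p = 0.34) and was read at 4.13 and 3.78 against 6.9 and 17.9 CPM. The summed markers stood at 720 and 1015 against 982 and 1282 CPM, so their ranges overlapped. Lyve1, the largest part of the sum, lay the other way, with a log2 fold change of 0.42 (SE 0.31, edgeR adjusted p = 0.819). None of the 8 was at 0 in all libraries, and their part in the Spns2 difference was not tested.

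Plpp3 (NCBI Gene 67916; chromosome 4, 105157347 to 105232767) had the lowest p of the genes above 0. Its CPM was 138 and 182 in tdTomato+ libraries, against 97.8 and 126 in ZsGreen+ libraries. Both tdTomato+ libraries were higher than both ZsGreen+ libraries, and replicate 2 was the higher one in each group. The groups stood at 160 ± 30.8 and 112 ± 20.3 CPM, with a log2 fold change of 0.51 (SE 0.22, 95% interval -7.5e-05 to 1.03). The unadjusted p was 0.05003 and the edgeR adjusted p 0.57. Fibroblast markers stood higher in the same libraries, at a summed 250 and 454 against 112 and 139 CPM over 10 genes, none at 0 in all libraries. EdgeR called 0 of 10 (0.304% of all genes), but 6 had an unadjusted p under 0.05 (8.77%). Their median log2 fold change was 1.32, with 9 above 0 and 1 below. In CPM 6 of 10 did not overlap and were higher in tdTomato+ cells (19.9% of all genes). Large vessel endothelial markers were higher too, at a summed 3810 and 5489 against 2208 and 2054 CPM over 10 genes. Of the 10, edgeR called 1, higher (0.167% of all genes), and none was at 0 in all libraries. Vwf, the largest part of the sum, stood at 2006 and 2961 against 947 and 845 CPM. The median log2 fold change was 1.34. In CPM 5 of 10 did not overlap and were higher, and 1 was lower, beside 19.9% and 18.2% of all genes. That 1 was Hey1, at 97.1 and 85.8 against 166 and 110 CPM. The part of either list in the Plpp3 difference was not tested.

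Plpp1, a second surface lipid phosphatase that takes the same substrates, lay the other way. Its TPM was 597.60 and 686.66 in tdTomato+ cells and 761.70 and 1239.82 in ZsGreen+ cells. Its log2 fold change of -0.77 had an SE of 0.23 and an edgeR adjusted p of 0.36, and it was called by DESeq2 (adjusted p = 0.0475) and by the replicate-block fit (0.0263). The ratio of Plpp1 to Plpp3 TPM was 7.9 and 7.26 in tdTomato+ libraries and 17.6 and 18.8 in ZsGreen+ libraries. The ratio varied less between replicates than either gene did, and the groups were well apart; it was chosen after the values were seen and has no test. Plpp1 remained the more abundant of the pair in every library.

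**Figure D3:**
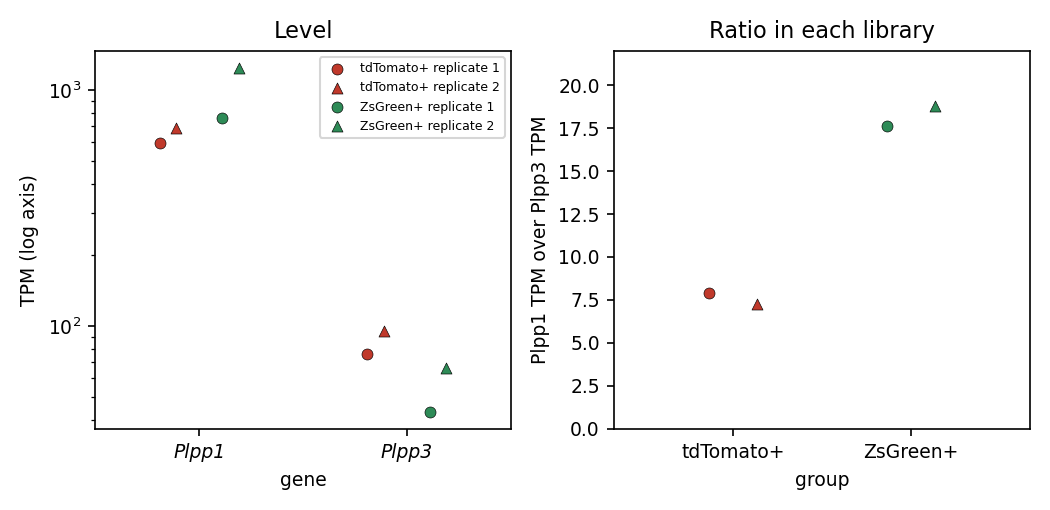
Left, TPM (log axis) of the lipid phosphatases Plpp1 and Plpp3 in each library; right, the ratio of Plpp1 to Plpp3 TPM in each library, by group. The ratio is 7.26 to 7.9 in tdTomato+ and 17.6 to 18.8 in ZsGreen+ libraries.

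In the same way Plpp3, which removes S1P outside the cell, and Spns2, which supplies it, lay on opposite sides. The ratio of Plpp3 to Spns2 TPM was 0.949 and 1.04 in tdTomato+ libraries and 0.446 and 0.55 in ZsGreen+ libraries. In tdTomato+ cells the transcripts were about equally abundant, while Spns2 was the more abundant in both ZsGreen+ libraries. This ratio too was chosen after the values were seen, and it leaves out Plpp1. Plpp1 and Plpp3 together stood at 673 and 781 TPM in tdTomato+ and at 805 and 1306 TPM in ZsGreen+ libraries.

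Sphk2, found in nucleus and mitochondria, was the main kinase transcript. Its TPM was 21.73 and 26.37 in tdTomato+ and 25.18 and 24.50 in ZsGreen+ libraries, and the groups overlapped. With -0.20 the log2 fold change was within its error (SE 0.22, 95% interval -0.71 to 0.32, edgeR adjusted p = 0.893). Sphk2 (NCBI Gene 56632; chromosome 7, 45709463 to 45718002) shares 13.0% of its exonic bases with Dbp and 8.97% with Rpl18, both on the opposite strand. No source used here says whether reads were counted by strand, and reads from these stretches cannot be assigned to one gene or the other from the table.

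Sphk1, the cytoplasmic kinase that growth factors activate, rested on 108 and 63 counts in tdTomato+ and on 70 and 39 counts in ZsGreen+ libraries. Its CPM was 5.94 and 3.31 against 4.43 and 2.14, and the groups overlapped. Within each group replicate 1 was the higher, by more than the groups differed: the log2 ratio of replicate 2 to replicate 1 was -0.85 in tdTomato+ and -1.05 in ZsGreen+ cells, and the log2 fold change between groups was 0.50 (SE 0.54, 95% interval -0.78 to 1.77, edgeR adjusted p = 0.892). The Sphk2 to Sphk1 ratio in TPM was 6.35 and 12.2 in tdTomato+ and 8.28 and 13.8 in ZsGreen+ libraries.

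**Figure D4:**
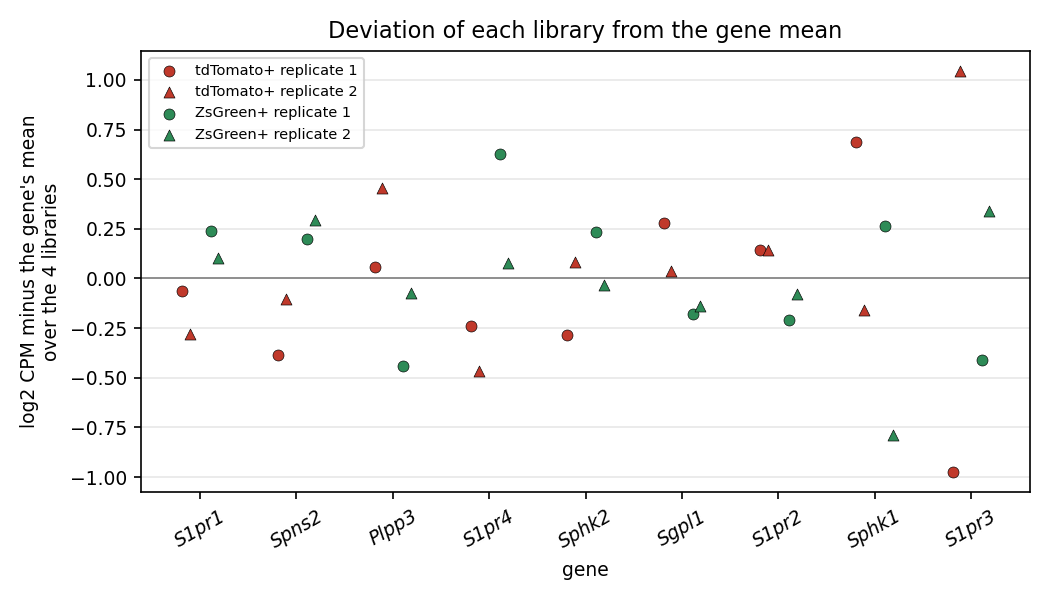
Log2 CPM of each S1P gene in each library minus that gene's mean over the 4 libraries; colour gives the group and shape the replicate number. For Sphk1 and S1pr3 the libraries separate by replicate number rather than by group, while for S1pr1, Spns2, Plpp3 and S1pr4 the groups do not overlap.

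Counts and TPM did not give the same picture for Sphk1. The count per TPM of a gene, relative to that of S1pr1, which has 1 listed transcript, follows the estimated length of the transcripts the reads were assigned to. For Sphk1 it was 0.995 and 0.834 in tdTomato+ and 0.674 and 0.655 in ZsGreen+ libraries, a ratio of 1.38 between groups. For the other 7 genes that ratio lay between 0.999 and 1.01. Of these, S1pr3 and S1pr4 have 1 listed transcript, so their ratio had little room to move. Among 9156 genes with more than 1 listed transcript and at least 30 counts and 1 TPM in each library, 12 (0.131%) had a ratio at least as far from 1. Those genes were not matched to Sphk1 in counts or in number of listed transcripts, so the share does not say how unusual Sphk1 is among genes like it. The authors' estimate thus assigned Sphk1 reads to longer transcripts in both tdTomato+ libraries, from few reads. The table lists 18 transcripts for Sphk1 and a span of 116529215 to 116536675 on chromosome 11 (NCBI Gene 20698), where RefSeq starts at 116530836. An antisense gene, Gm29292, covers 4.02% of its exonic bases. The measure was chosen after the values were seen and has no test.

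**Figure D5:**
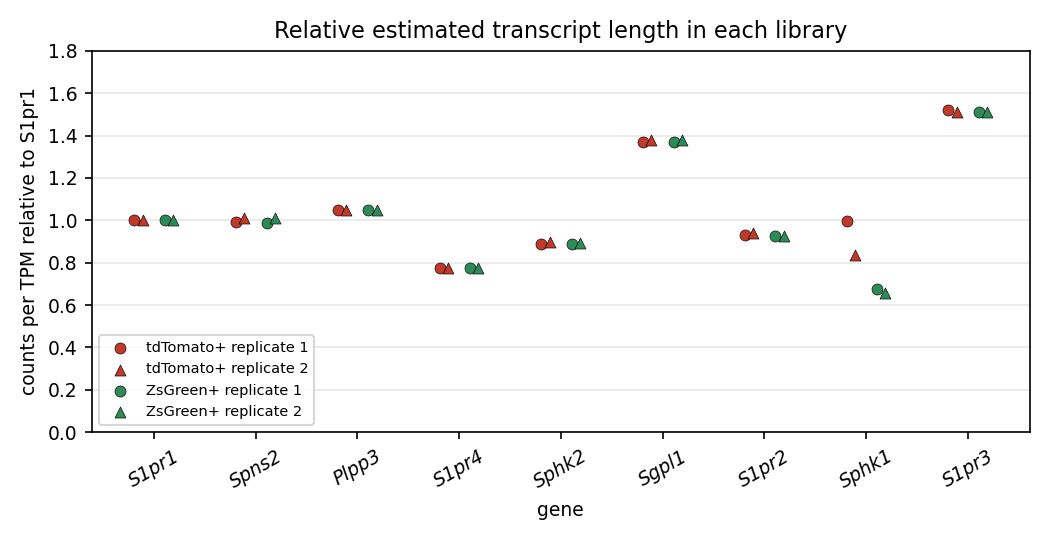
Counts per TPM of each S1P gene relative to S1pr1 in each library, a measure of the estimated transcript length. Sphk1 spreads from 0.655 to 0.995, higher in both tdTomato+ libraries; the points of each other gene nearly coincide.

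Sgpl1 (NCBI Gene 20397; chromosome 10, 61098642 to 61147684), which ends S1P signalling by cleaving it, rested on 1076 and 952 counts in tdTomato+ and on 679 and 808 counts in ZsGreen+ libraries. Its TPM was 24.75 and 19.79 against 14.56 and 17.55, and the groups did not overlap in TPM or in CPM. In CPM they stood at 54.6 ± 6.52 and 43.6 ± 0.917 CPM, with a log2 fold change of 0.32 (SE 0.19, 95% interval -0.12 to 0.77, edgeR adjusted p = 0.747). Per library, Sgpl1 TPM over the summed TPM of both kinases was 0.984 and 0.694 in tdTomato+ and 0.516 and 0.668 in ZsGreen+ libraries. The table gives Sgpl1 on the plus strand and GENCODE on the minus strand.

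Of 14 further genes that carry, make or break down S1P, 11 were tested and edgeR called 0 (0.304% of all genes). An unadjusted p under 0.05 was found for 2 (8.77% of all genes), and the median log2 fold change was -0.09. DESeq2 called 1 of the 14 it tested, Plpp1 (1.97% of all genes), and limma-voom 0 of 11 (0.25%). Acer2, an alkaline ceramidase that yields the sphingosine from which S1P is made, stood at 455 and 379 CPM against 599 and 558 CPM, a log2 fold change of -0.47 (SE 0.20, edgeR adjusted p = 0.558). Asah2, the neutral ceramidase, stood at 12.5 and 11.2 against 5.82 and 8.82 CPM. Aldh3a2, the aldehyde dehydrogenase that takes up the product of the lyase, stood at 38.5 and 38.0 against 50.4 and 46.3 CPM. None of these genes overlapped between groups in CPM, as was so for 38.1% of all genes tested. They were named for a low p, which favours such a split. In TPM the groups overlapped for Acer2, at 246.02 and 224.25 against 245.08 and 289.18. Apom, the plasma carrier of S1P, was at most 0.0633 CPM.

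Ceramide and sphingomyelin genes, upstream of sphingosine, gave 0 calls by edgeR without a block, DESeq2 and limma-voom. The replicate-block fit called Degs2 (adjusted p = 0.00689), Sgms2 (0.00674) and Smpd3 (0.0394), where it called 7.09% of all genes. Of 25 listed, 22 were tested, and 2 had an unadjusted edgeR p under 0.05 (8.77% of all genes). DESeq2 gave 3 of the 23 it tested and limma-voom 3 of 22 (7.05% and 9.34% of all genes). The median log2 fold change was -0.06. Those with the lowest p lay higher in tdTomato+ cells at low levels. Degs2, a dihydroceramide desaturase and hydroxylase, stood at 7.65 and 7.51 against 3.29 and 2.19 CPM (log2 fold change 1.47, SE 0.40, edgeR adjusted p = 0.286). Sgms2, a sphingomyelin synthase of the plasma membrane, stood at 5.56 and 7.77 against 1.39 and 3.29 CPM. Smpd3, the neutral sphingomyelinase 2, was at 7.26 and 10.2 against 5.57 and 2.57 CPM. Smpd4 differed less, at 31.9 and 30.7 against 26.2 and 24.2 CPM.

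Among 20 genes that couple S1P receptors to the cell or remove them from its surface, edgeR called 0 (0.304% of all genes). An unadjusted p under 0.05 was found for 3 (8.77% of all genes), and the median log2 fold change was -0.17. DESeq2 called 1 (1.97% of all genes) and limma-voom 0 (0.25%). Tiam1, an exchange factor that activates Rac downstream of S1pr1, stood at 17.6 and 21.6 CPM in tdTomato+ and at 39.5 and 82.9 CPM in ZsGreen+ libraries, with a log2 fold change of -1.65 (SE 0.36, edgeR adjusted p = 0.18). Tiam1 was the gene DESeq2 called (adjusted p = 0.000645). Its size rested on ZsGreen+ replicate 2, the highest library: leaving that library out gave -1.02 with an edgeR adjusted p of 0.198, while leaving out ZsGreen+ replicate 1 gave -2.08 with an edgeR adjusted p of 0.00772. Each of these sets 1 ZsGreen+ library against 2, and the lone library is assumed to vary like the other group. Leaving out either tdTomato+ library gave an edgeR adjusted p of 0.583 or 0.686. The replicate-block fit called Tiam1 and Gna12, where it called 7.09% of all genes. Gna12, a G protein alpha subunit, stood at 31.7 and 50.7 against 50.8 and 102 CPM, and Gnaq, the subunit that activates phospholipase C, at 148 and 161 against 90.7 and 138 CPM. Arhgef12, a guanine nucleotide exchange factor, stood at 115 and 105 against 129 and 137 CPM.

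Cd69, a membrane protein of activated lymphocytes that binds S1pr1 and pulls it from the surface, was named after its values were seen, since its mean lay below 1 CPM. It rested on 32 and 23 counts in tdTomato+ libraries and on 3 and 1 counts in ZsGreen+ libraries (edgeR adjusted p = 0.249). The summed T, NK and B cell markers given above were higher in replicate 1 of each group, and the groups overlapped in both sums. Median log2 fold changes were 1.11 for the macrophage and monocyte markers and 0.94 for the neutrophil markers. The part of these lists in the Cd69 difference was not tested.

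The related lysophosphatidic acid axis, which shares the phosphatases Plpp1 and Plpp3, gave 0 edgeR calls among 6 genes tested (0.304% of all genes). By edgeR 0 had an unadjusted p under 0.05 (8.77% of all genes). DESeq2, which tested 7, and limma-voom, which tested 6, called 0, with 0 and 1 at an unadjusted p under 0.05 (7.05% and 9.34% of all genes). Lpar6, the receptor of the list with the highest TPM in every library, stood at 73.1 and 59.6 against 65.6 and 58.9 CPM. Enpp2, autotaxin, which makes lysophosphatidic acid, stood at 65.0 and 52.9 against 81.5 and 67.0 CPM, and the Lpar4 receptor at 3.74 and 8.14 against 2.09 and 4.00 CPM. Lpar1, Lpar2 and Lpar5 were at 1.16 CPM or less in every library, so the list's median log2 fold change of 0.86 rests on few reads.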

How the data were processed

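Total RNA of sorted lung endothelial cells was amplified over the whole transcriptome before library preparation, per the labels' protocols; molecular identifiers are not mentioned there, and a count may hold several copies of one molecule. The authors deposited estimated counts and TPM per gene. The submitters' processing notes name RSEM 1.3.1 and DESeq2 1.4.5 and the builds mm10 and GRCm38; no aligner and no strand setting was found in the sources used here. Of the count values 16.2% to 17.9% are not whole, and counts were rounded. Another 8 value columns of these libraries were not used.

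Groups and replicate numbers came from titles. edgeR 4.0.16 (R 4.3.3) was run with TMM, filterByExpr at a minimum count of 10 and a threshold of 0.05; the biological coefficient of variation was 26.1%. Intervals are 95%. DESeq2 1.42.0, limma 3.58.1 (voom, and trend on log2 of TPM plus 1 or 0.1), other scalings and filters, a replicate block and leaving out each library were alternatives. On the TPM plus 1 scale the median of all genes moved to 0.12. Scripts were tested on simulated data.

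Members and lists were chosen with earlier results of these data known. All 9 genes are named, and each of 4 pathway lists gives up to 4 more, by lowest p, provided their mean reached 1 CPM; genes near S1pr1 and S1pr4 in pattern needed a mean of 5 CPM; 12 marker lists are given by summed CPM.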

Additional observations from a re-analysis of the deposited data

How the results depend on the processing

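The call of 0 of the 9 S1P genes was kept under every scaling, filter, tool and left-out library tried; the exception was the edgeR fit with the replicate number as a block, which called 1, S1pr4 (log2 fold change -0.70, SE 0.21, adjusted p = 0.0148). Same-numbered libraries deviated together across 13177 genes (correlation 0.469), but the labels do not say that a number marks a shared mouse or day, and 2 pairs cannot settle it. The block called 934 genes (7.09% of those tested) where the main test called 40. Among the pathway genes named it also called Tiam1, Gna12, Plpp1, Degs2, Sgms2 and Smpd3. Pathway genes were named for the lowest edgeR p of their lists in these same data, so these calls are no separate evidence. The count of 40 genes was 330 with DESeq2, 128 without a filter on low counts, 22 with limma on TPM plus 0.1 and 0 with limma on TPM plus 1 without a filter (1508 at an unadjusted p under 0.05); leaving out single libraries gave 4 to 304. The cause of these moves was not tested. Each S1P gene kept its direction except S1pr3, which was -0.97 without tdTomato+ replicate 2 (adjusted p = 0.999); leaving out single libraries gave -0.97 to 1.03 for it. Sphk1 ranged from 0.01 to 1.11 and Sphk2 from -0.37 to -0.03 in the same way. Lpar6 was -0.07 without tdTomato+ replicate 1, with a range of -0.07 to 0.25, and Tiam1 ranged from -2.08 to -1.02. On the TPM scale 5 of the 9 genes, not 6, had groups that did not overlap, an alternative chosen after seeing the data; 37.0% of all genes tested had the same. S1pr3 and Sphk1 had the fewest counts of the 9 genes, 28 to 119 per library, and the part of depth in their spread was not tested.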
